A study of Mus musculus with 24 samples.

Results

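The muscle nicotinic acetylcholine receptor and the proteins that gather it at the nerve-muscle synapse were followed in cells sorted from the tibialis anterior muscle of mice after injury with cardiotoxin, a snake venom toxin that kills myofibres. The set held 7 genes, Chrna1, Chrnb1, Chrnd, Chrng, Chrne, Musk and Rapsn, chosen by the gene symbol of their probe sets, out of 23279 genes with a symbol. Each was read by 1 probe set. Satellite cells, the stem cells of muscle, and endothelial cells, which line its vessels, were taken from uninjured muscle (day 0) and on days 2, 4 and 8 after cardiotoxin, which makes 8 groups of 3 biological replicates, or 24 arrays. Satellite cells had been sorted for alpha7 integrin and for CD34 (present or low) and against CD45 and CD31, and endothelial cells for CD34 and CD31 and against CD45, among other markers. No transgene or drug is named in the labels. Strain, sex and age of the mice are not given in the sources used here. Groups were taken from the sample titles, because 2 other label fields contradict them, the cell type in 12 samples and the time point in 18. Day 0 muscle was not injected, so the effect of an injection without toxin cannot be told apart from that of the toxin.

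The receptor is a ring of subunits around a cation channel that opens when motor nerve endings release acetylcholine. Foetal muscle, and muscle that has lost its nerve, uses the gamma subunit beside alpha, beta and delta, and innervated adult muscle replaces gamma with epsilon. MuSK, a receptor tyrosine kinase switched on by nerve-derived agrin through Lrp4, and rapsyn, a scaffold protein on the inner face of the membrane, anchor the receptors in a dense cluster under the nerve ending. In cultured myoblasts, subunit genes are known targets of the myogenic E-box factors MyoD and myogenin, and the epsilon gene is also known for an N-box, bound by ETS-family factors in nuclei under the synapse.

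The proximal promoters of 5 of the 7 genes were matched in a RefSeq table (GRCm38.p6), and 3 are shown because the results contrast a foetal, a shared and an adult subunit. Each is the stretch from 250 to 31 bases before the transcript start that the table uses, read 5′ to 3′ on the gene's own strand, with the E-box CAGCTG, the E-box CAGGTG and the N-box core CCGGAA in capitals.
Chrng, chr1:87205561-87205780, plus strand: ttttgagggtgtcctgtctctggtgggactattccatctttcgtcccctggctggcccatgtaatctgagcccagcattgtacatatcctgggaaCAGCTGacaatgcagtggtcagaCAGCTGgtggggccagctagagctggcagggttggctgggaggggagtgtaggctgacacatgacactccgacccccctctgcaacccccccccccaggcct
Chrna1, chr2:73580369-73580588, minus strand: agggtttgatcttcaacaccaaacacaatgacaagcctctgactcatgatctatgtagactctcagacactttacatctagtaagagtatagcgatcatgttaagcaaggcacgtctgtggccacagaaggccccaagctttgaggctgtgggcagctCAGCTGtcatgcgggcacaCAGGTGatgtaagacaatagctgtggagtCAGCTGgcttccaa
Chrne, chr11:70619225-70619444, minus strand: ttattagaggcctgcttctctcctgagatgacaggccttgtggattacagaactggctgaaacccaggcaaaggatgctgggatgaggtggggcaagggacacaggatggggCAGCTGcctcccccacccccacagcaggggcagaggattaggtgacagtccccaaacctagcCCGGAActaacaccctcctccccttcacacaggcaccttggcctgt
Both strands were searched, and each E-box is also a match of the wider pattern CANNTG. Chrng held 2 copies of CAGCTG, starting 155 and 132 bases before the start. Chrna1 also held 2, starting at 92 and 44 bases, with a CAGGTG at 73 between them. Chrne held 1 CAGCTG, at 138 bases, and was the only one of the 5 with CCGGAA, at 76 bases. Chrnb1 held none of these letters in its window. Of 32851 windows of this length in the table, 11.4% held at least 1 CAGCTG, 0.983% held 2 or more, 15.5% held CAGGTG, 9.47% held CCGGAA and 62.1% held CANNTG. A match of letters is a description and does not show that a factor bound there. The window listed for Musk (chr4:58285712-58285931) lies mostly inside the annotated gene, which starts at 58285729, and is not shown. It held 1 CAGCTG, at 68 bases. The starts used for Chrne and Chrnb1 also lie inside their annotated genes, but their windows do not. Promoters of Chrnd and Rapsn were not used here. Chrnd and Chrng are neighbours on chromosome 1 in the same RefSeq annotation.

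All levels are log2 values that the authors normalized with RMA (robust multi-array average) and deposited, and a difference of 1 is a doubling. They ranged from 1.29 to 12.9 over all probe sets, with array medians of 4.11 to 4.40. Levels of different probe sets were not ranked, and the difference of a pair within an array was used only to see whether it shifted between days. A gene entered the tests when 3 or more arrays showed it above the median of the array, which held for 14064 genes and for 6 of the 7. Chrnb1 lay above the median on all 24 arrays, Chrng on 22, Chrna1 on 21, Rapsn on 16, Musk on 9 and Chrnd on 7. Musk and Chrnd were above it on no endothelial array and so entered through satellite arrays alone. Chrne was above it on 0 arrays and was not tested in the fit. Differences come from limma, fitted to all 24 arrays with Benjamini-Hochberg adjustment over the 14064 genes. A gene was called when its adjusted p was under 0.05 and its difference at least 1. Arrays of a group correlated at 0.931 to 0.976, and the highest correlation between groups was 0.974.

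The sorted cells were first set against markers of their labels. Pecam1 (CD31) was at 11.3 to 11.7 on every endothelial array and Pax7, the transcription factor that defines satellite cells, at 4.22 to 5.65. On satellite arrays Pax7 read 9.80, 8.76 and 9.28 on day 0, 4.67, 5.70 and 5.16 on day 2, 8.06, 9.00 and 8.30 on day 4, and 8.86, 7.40 and 8.13 on day 8. On day 2, satellite replicates 1 and 3 thus lay within the endothelial range for this marker and replicate 2 just above it. Of all genes tested, 20.5% were called between satellite day 2 and day 0, and 9.67% were lower. On the day 2 arrays 11 of 12 satellite cell markers were lower than on day 0, and the mean over the list fell from 8.53 to 8.69 down to 5.34 to 5.67. All 15 leukocyte markers were higher, with list means of 3.69 to 4.19 on day 0 and 9.17 to 10.7 on day 2. Ptprc, which encodes CD45, against which the cells had been sorted, read 9.82, 8.01 and 9.67 on day 2 against 2.81 to 3.13 on day 0. Of 14 endothelial markers, 8 were higher on satellite day 2, including Pecam1, and 10 of 11 pericyte and smooth muscle markers were lower. Pecam1 read 8.66, 10.8 and 9.17 on satellite day 2 against 7.19 to 8.21 on day 0. Replicate 2 of satellite day 2 also had the highest endothelial list mean of that group, at 8.74 against 6.80 and 7.07. In bulk RNA, fewer cells of a type and less RNA per cell cannot be told apart. These values move with every satellite day 2 result below, and their part in it was not tested.

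**Figure D1:**
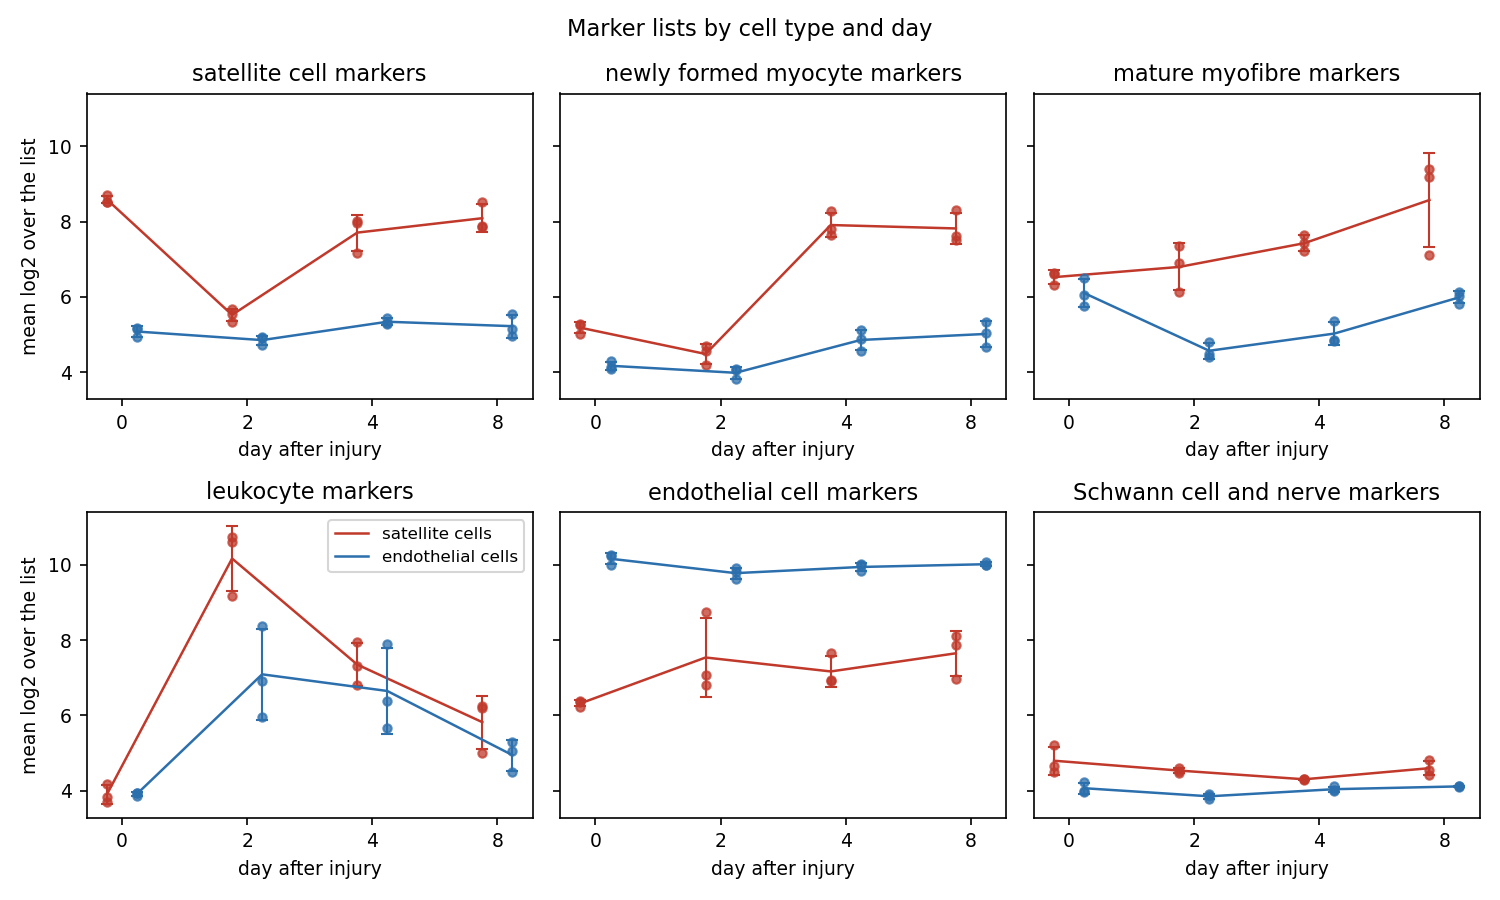
Mean log2 level over each marker list (vertical axis) by day after injury (horizontal axis). Points are arrays, lines join group means and bars are SD over 3 arrays. The satellite list dips on day 2 to 5.34 to 5.67 while the leukocyte list peaks at 9.17 to 10.7, and the list of newly formed myocytes rises on days 4 and 8.

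Over the days, the 6 genes tested split into patterns that the day 4 and day 2 comparisons separate. On day 4, Chrng, Chrnd and Chrna1 were higher in satellite cells than on day 0 by 4.33, 3.13 and 3.10 on the log2 scale. On day 2, Musk, Chrnb1 and Rapsn were lower than on day 0 by more than 1.5, and by day 4 they were within 0.6 of it again. On day 8, Chrna1 and Chrng were still higher than on day 0, Chrnd was no longer called, and Chrne stayed below the array median throughout. Each of the 6 passed limma's F test over the 4 satellite days, at adjusted p between 1.75e-09 (Chrng) and 7.96e-05 (Chrnb1), as did 31.9% of all genes tested. None passed it over the endothelial days, where adjusted p ran from 0.073 (Chrna1) to 0.991 (Rapsn) and 8.34% of all genes passed. With 6 genes, none passing is near that share, and nothing is read from it. Musk and Chrnd were above the array median on no endothelial array, so a change in them there could go unseen.

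**Figure D2:**
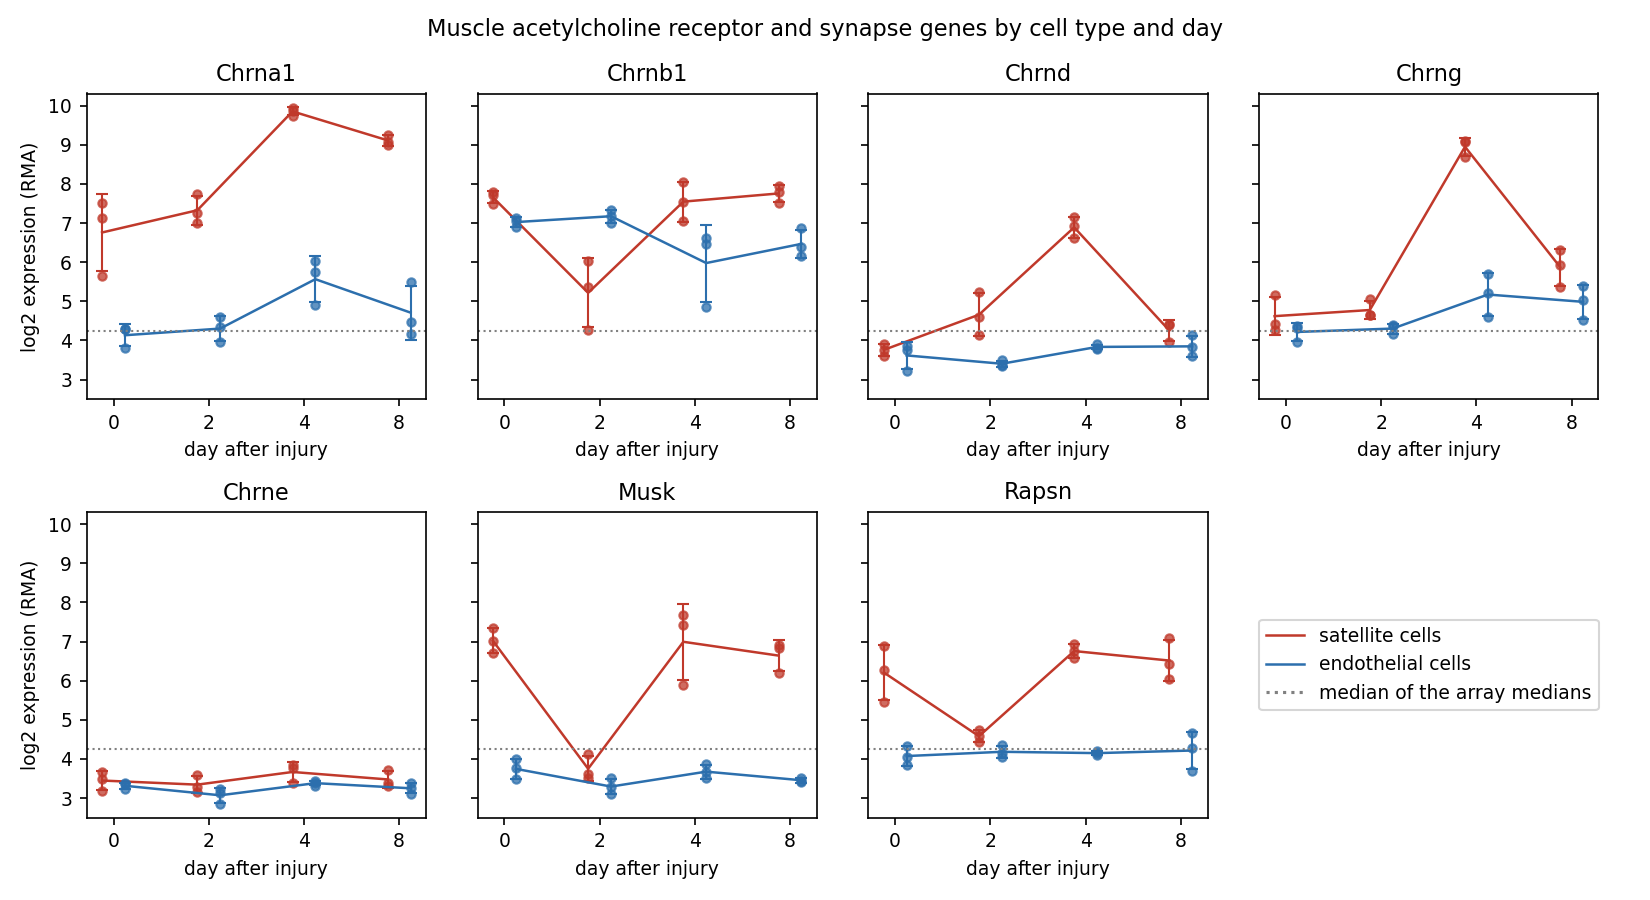
Log2 level of each of the 7 genes (vertical axis) by day after injury (horizontal axis), with satellite cells in red and endothelial cells in blue. Points are arrays, lines join group means, bars are SD over 3 arrays and the dotted line is the middle of the array medians. Chrng and Chrnd peak on satellite day 4, Musk, Chrnb1 and Rapsn dip on satellite day 2, and Chrne lies below the dotted line on every array.

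Chrng, the gamma subunit of the foetal receptor, showed the sharpest peak of the set. In satellite cells it read 5.17, 4.43 and 4.27 on day 0, then 5.05, 4.64 and 4.64 on day 2, and 9.10, 8.69 and 9.07 on day 4, before 5.93, 6.31 and 5.37 on day 8. The 3 arrays of day 4 stood more than 2 above every other array of the study, and those of day 0 and day 2 overlapped. The rise from day 0 to day 4 was 4.33 ± 0.30 (SE, n = 3 per group; adjusted p = 3.65e-09, limma), which is 20.1-fold from a day 0 level close to the array median and below it on 1 of 3 arrays. From day 4 to day 8 Chrng fell by 3.08 ± 0.30 (adjusted p = 6.16e-06, limma), and it was then still 1.25 above day 0 (adjusted p = 0.00936). The day 8 difference from day 0 lost its call without day 0 replicate 3 (1.08, adjusted p = 0.0557) or day 8 replicate 2 (1.03, adjusted p = 0.0609), whereas neither the day 4 rise nor the fall after it lost its call on leaving out any array. Endothelial levels were 4.22 ± 0.24, 4.30 ± 0.13, 5.17 ± 0.54 and 4.99 ± 0.43 (SD, n = 3) over the 4 days. The satellite day 8 level of 5.87 ± 0.47 overlapped that of endothelial day 4.

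Chrne, the epsilon subunit that replaces gamma in the adult receptor, showed no such rise. Satellite values were 3.50, 3.18 and 3.67 on day 0, 3.29, 3.58 and 3.16 on day 2, 3.85, 3.78 and 3.38 on day 4, and 3.32, 3.73 and 3.38 on day 8. Endothelial means were 3.31, 3.07, 3.38 and 3.25 over the same days. Every group overlapped its neighbour in the order of the 8 means. Against satellite day 0 the differences were -0.11, 0.22 and 0.03 on days 2, 4 and 8, and in an unfiltered limma fit over all genes their adjusted p were 0.781, 0.553 and 0.964. With every value below the array median, the data give no order of the groups for this subunit.

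Because the levels of different probe sets cannot be compared, foetal and adult subunit were contrasted through their difference within each array. Chrng minus Chrne was 1.67, 1.25 and 0.60 in satellite cells on day 0 and 1.76, 1.06 and 1.49 on day 2. It was 5.25, 4.92 and 5.69 on day 4 and 2.61, 2.59 and 1.99 on day 8. The groups of days 4 and 8 did not overlap with each other or with the earlier days, while days 0 and 2 overlapped. Over the 4 satellite days the difference gave p = 0.000519 (exact permutation test, F ratio of 62.0, reached by 192 of 369600 arrangements of the 12 arrays). In endothelial cells the means were 0.90, 1.23, 1.79 and 1.74. Since Chrne moved by at most 0.32 between satellite days, nearly all of the shift is the change in Chrng described above. With Chrne below the array median on every array, the test restates that change and is no separate evidence on the adult subunit.

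**Figure D3:**
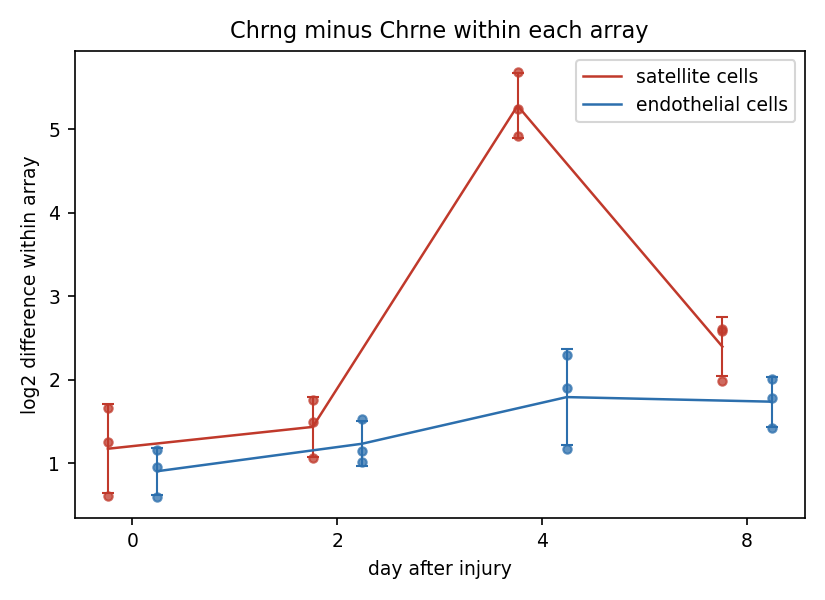
Chrng minus Chrne within each array, in log2 units (vertical axis), by day after injury (horizontal axis). Points are arrays, lines join group means and bars are SD over 3 arrays. Satellite cells rise from 1.17 ± 0.54 on day 0 to 5.28 ± 0.39 on day 4 and stand at 2.40 ± 0.35 on day 8.

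Chrnd, the delta subunit shared by the foetal and adult receptor, was above the array median on satellite arrays only. It read 3.76, 3.60 and 3.91 on satellite day 0, 4.14, 4.61 and 5.23 on day 2, 7.15, 6.61 and 6.92 on day 4, and 4.39, 3.95 and 4.42 on day 8. All 12 endothelial arrays lay between 3.23 and 4.13. The 3 arrays of satellite day 4 stood apart from all others, and each other group overlapped the next in order. Chrnd was higher on day 4 than on day 0 by 3.13 ± 0.25 (SE, n = 3 per group; adjusted p = 1.68e-08, limma), or 8.78-fold, with the day 0 level below the array median. It fell by 2.64 ± 0.25 from day 4 to day 8 (adjusted p = 4.68e-06, limma). On day 2 it was already 0.90 above day 0 without overlap (adjusted p = 0.00852), which is under the size needed for a call, and the difference was 1.16 without day 2 replicate 1.

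Chrna1, the alpha subunit that carries most of the acetylcholine binding site, rose with Chrng and Chrnd but did not fall back with them. Satellite values were 5.64, 7.51 and 7.13 on day 0, with replicate 1 the lowest, then 7.25, 7.73 and 7.01 on day 2, 9.87, 9.75 and 9.95 on day 4, and 9.27, 9.08 and 9.00 on day 8. Day 4 lay above day 8 and day 8 above day 2 without overlap, whereas days 0 and 2 overlapped. The difference from day 0 was 3.10 ± 0.39 on day 4 (SE, n = 3 per group; adjusted p = 1.1e-05, limma; 8.55-fold) and 2.35 ± 0.39 on day 8 (adjusted p = 0.000443; 5.11-fold). From day 4 to day 8 it moved by -0.74, which was not called (adjusted p = 0.443).
In endothelial cells Chrna1 read 4.30, 3.81 and 4.29 on day 0 and 5.74, 4.91 and 6.04 on day 4, a difference of 1.43 ± 0.39 (adjusted p = 0.0306, limma). It was the only one of the 6 called in endothelial cells on any day, against 5.33% of all genes on day 4 (3.11% higher). That call was lost without any 1 of the 3 day 0 arrays or without day 4 replicate 1 or 3 (adjusted p between 0.0576 and 0.135), and without day 4 replicate 3 Chrng was called in its place (1.24, adjusted p = 0.0223). On endothelial day 4, 2 of 11 markers of newly formed myocytes were also higher than on day 0, and the mean over that list went from 4.08 to 4.29 on day 0 to 4.56 to 5.11 on day 4. The leukocyte list moved further on these arrays, from 3.85 to 3.95 up to 5.66 to 7.89, with 9 of 15 genes higher. The list of fibro-adipogenic progenitors, connective tissue cells of muscle, went from 3.96 to 4.11 up to 4.63 to 5.16, with 1 of 7 tested genes higher. Their part in the Chrna1 difference was not tested.

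Chrnb1, the beta subunit, was the member with a clear level in both cell types. On satellite arrays it read 7.71, 7.49 and 7.78 on day 0, 5.36, 6.02 and 4.27 on day 2, 7.04, 7.55 and 8.06 on day 4, and 7.96, 7.51 and 7.80 on day 8. The day 2 arrays lay below all other satellite arrays, and days 0, 4 and 8 overlapped. The fall by day 2 was of 2.44 ± 0.40 (SE, n = 3 per group; adjusted p = 9.02e-05, limma), and the differences from day 0 on days 4 and 8 were -0.11 and 0.10 (adjusted p = 0.906 and 0.92).
Endothelial values were 7.13, 6.89 and 7.05 on day 0, 7.34, 7.01 and 7.17 on day 2, 4.85, 6.47 and 6.62 on day 4, and 6.87, 6.15 and 6.39 on day 8. Replicate 1 of day 4 was the lowest of them and also the day 4 endothelial array with the highest mean of the leukocyte list, at 7.89 against 6.39 and 5.66. Replicate 1 of day 2 had the highest leukocyte list mean of all endothelial arrays, at 8.38, and the highest endothelial Chrnb1 value, at 7.34. The part of the leukocyte list in the Chrnb1 values was not tested. None of the endothelial differences from day 0 was called for Chrnb1 (day 4: -1.05, adjusted p = 0.141).

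Musk, the kinase that starts receptor clustering, was above the array median on satellite arrays only. It read 7.34, 6.71 and 7.02 on satellite day 0, 3.63, 4.12 and 3.51 on day 2, 5.89, 7.42 and 7.68 on day 4, and 6.90, 6.19 and 6.83 on day 8. All 12 endothelial arrays lay between 3.11 and 3.99. On satellite day 2, replicates 1 and 3 lay within that range and replicate 2, at 4.12, lay above it. The satellite day 2 arrays did not overlap the endothelial arrays of day 2, of which the highest read 3.50. Musk fell by 3.27 ± 0.33 from day 0 to day 2 (SE, n = 3 per group; adjusted p = 2.8e-07, limma), 9.65-fold, and the day 2 level was below the array median. It was higher by 3.25 on day 4 than on day 2 (adjusted p = 7.45e-07). Days 0, 4 and 8 overlapped, with differences from day 0 of -0.03 and -0.38 (adjusted p = 0.974 and 0.559).

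Rapsn, the scaffold that ties receptors to the cytoskeleton, followed Musk at a smaller size. It read 6.89, 5.47 and 6.28 on satellite day 0, 4.73, 4.43 and 4.59 on day 2, 6.58, 6.95 and 6.75 on day 4, and 7.08, 6.43 and 6.04 on day 8. Endothelial means were 4.07 to 4.22. It fell by 1.63 ± 0.31 by day 2 (SE, n = 3 per group; adjusted p = 0.00034, limma), without overlap, and was higher by 2.18 on day 4 than on day 2 (adjusted p = 4.04e-05). On days 4 and 8 it overlapped day 0 (0.55 and 0.30, adjusted p = 0.256 and 0.619).

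Counted over comparisons, 3 of the 6 genes tested were called on satellite day 2, all lower, where 20.5% of all genes tested were called and 9.67% were lower. On day 4, 3 were called, all higher, against 12% of all genes (6.53% higher). On day 8, 2 were called, both higher, against 6.38% (4.38% higher). Between day 2 and day 4 all 6 were higher, against 10.5% called in all and 4.79% higher, with differences of 2.18 for Rapsn to 4.17 for Chrng. From day 4 to day 8, Chrng and Chrnd were lower and no other was called, against 1.68% of all genes (0.519% lower). The comparisons with day 0 share the day 0 arrays, and those with day 2 share the day 2 arrays, so their counts are not independent of each other.
In endothelial cells none of the 6 was called on day 2, against 6.73% of all genes, or on day 8, against 2.05%. Nothing is read from these counts, which are near those shares and include Musk and Chrnd, above the array median on no endothelial array. At an unadjusted p under 0.05 limma counted 0 of the 6 on day 2, 3 on day 4 and 1 on day 8. Those of day 4 were Chrna1, Chrng and Chrnb1, of which Chrna1 alone was called. Chrng was 0.96 higher on endothelial day 4 than on day 0, without overlap (adjusted p = 0.0593, limma). The gene of day 8 was also Chrng, with a difference of 0.77 (adjusted p = 0.219).

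**Figure D4:**
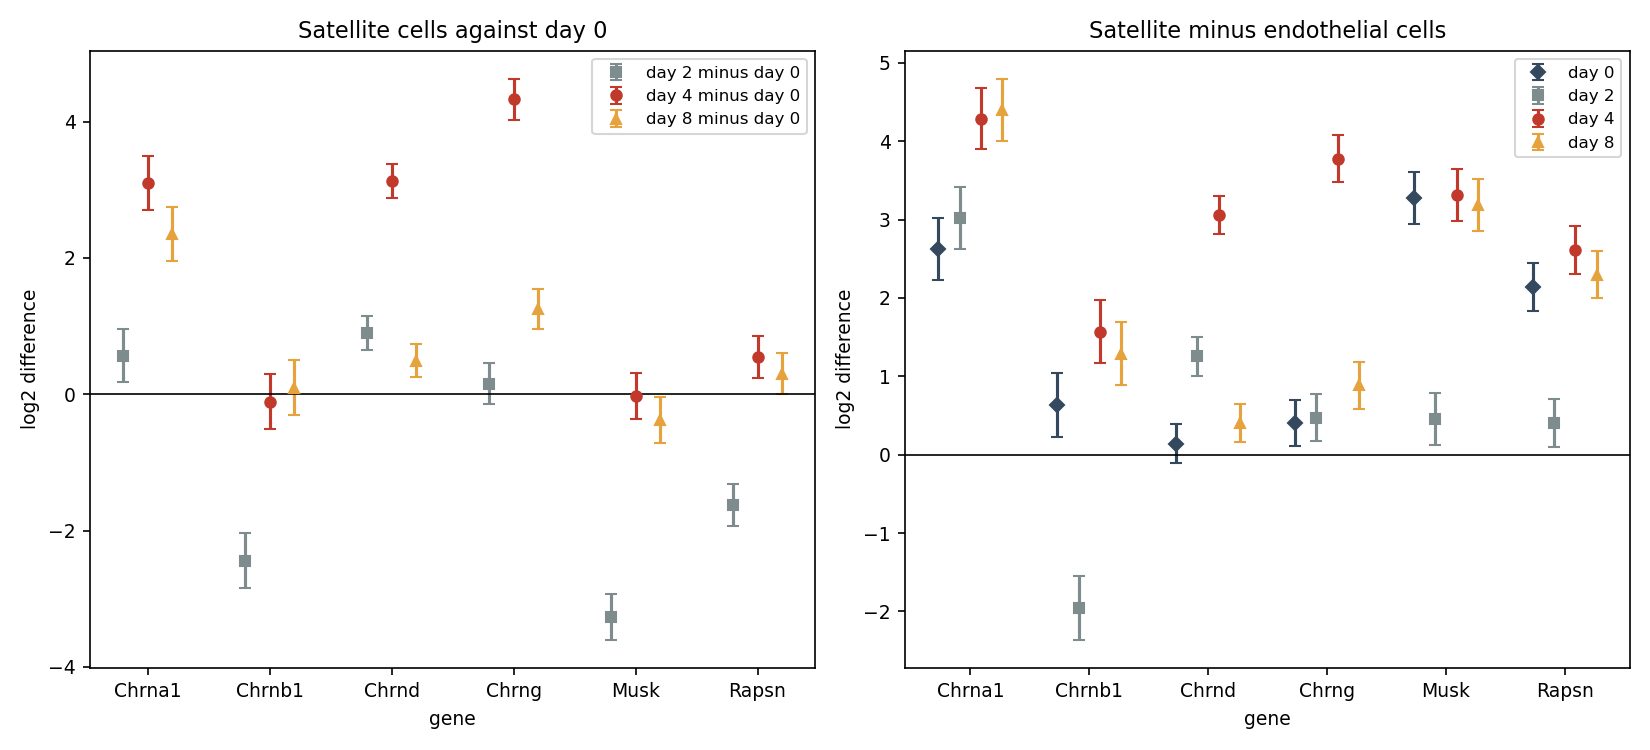
Log2 differences (vertical axis) with SE bars from the limma fit for the 6 genes tested (horizontal axis), in satellite cells against day 0 on the left and between satellite and endothelial cells of the same day on the right. Chrng, Chrnd and Chrna1 stand at 3.10 to 4.33 on day 4 on the left, and Musk, Chrnb1 and Rapsn below -1.5 on day 2.

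Satellite and endothelial cells of uninjured muscle differed in Musk, Rapsn and Chrna1, which were higher in satellite cells by 3.27, 2.14 and 2.63 (adjusted p = 1.92e-07, 1.61e-05 and 2.89e-05, limma). Chrnb1, Chrng and Chrnd were not called there (0.63, 0.40 and 0.14), and 17% of all genes were (7.59% higher). Musk and Chrnd entered the tests through satellite arrays alone, so on every day their p-values between the cell types are not read as support. On day 2, Chrna1 was higher by 3.02 and Chrnd by 1.25, whereas Chrnb1 was lower in satellite cells by 1.96 ± 0.40 (adjusted p = 0.00179, limma), the only member called in that direction on any day. The background on day 2 was 12.1%. Without replicate 3 of the satellite arrays the Chrnd difference of day 2 was 0.97 (adjusted p = 0.0138, limma), just under the size needed for a call.
On day 4 the 6 tested were higher in satellite cells, by 1.57 (Chrnb1) to 4.29 (Chrna1), with 12.9% of all genes called and 5.2% higher. Nothing is read from that count, or from that of day 8, because Musk and Chrnd entered the tests through satellite arrays alone. The Chrnb1 difference of day 4 lost its call without endothelial replicate 1 (1.00, adjusted p = 0.0726) or satellite replicate 3 (1.31, adjusted p = 0.0557). On day 8, 4 were higher, Chrna1 by 4.40, Musk by 3.19, Rapsn by 2.30 and Chrnb1 by 1.29, against 13.9% of all genes (7.05% higher). The last of these was lost without satellite replicate 1 or 3 or endothelial replicate 2 or 3 (adjusted p up to 0.11). Chrng was 0.89 higher on day 8 (adjusted p = 0.0423), under the size needed for a call, and passed it without satellite or endothelial replicate 3 (1.14 and 1.09).

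Whether the response to injury differed between the cell types was tested by the interaction term. For Musk and Chrnd, which entered the tests through satellite arrays alone, its p-values are not read as support. On day 4 the response of satellite cells exceeded that of endothelial cells by 3.37 ± 0.42 for Chrng and 2.92 ± 0.35 for Chrnd (SE; adjusted p = 5.25e-05 and 2.71e-05, limma), where 4.24% of all genes were called (2% higher). Chrna1, called higher in both cell types on day 4 but only in satellite cells on day 8, had an excess of 1.66 and 1.78 on these days. Neither was called (adjusted p = 0.104 and 0.109), although without satellite day 0 replicate 2 the day 4 value was 2.04 (adjusted p = 0.046). On day 2 the responses of Musk, Chrnb1 and Rapsn were lower in satellite cells by 2.82, 2.59 and 1.74, and that of Chrnd was higher by 1.11, against 11.5% of all genes. The call for Chrnd was lost on leaving out any 1 of 11 of the 24 arrays (adjusted p up to 0.134). No member was called on day 8 by limma, where 2.2% of all genes were, and 1, Chrna1, had an unadjusted p under 0.05.

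After day 4, Chrng fell away from Chrna1 in satellite cells. Within arrays, Chrng minus Chrna1 went from -0.90 ± 0.14 on day 4 (SD, n = 3) to -3.24 ± 0.44 on day 8, without overlap. The pair was chosen after the values were seen, and the exact permutation test gave p = 0.1, two-sided, the smallest that 3 arrays against 3 allow.

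The rest of the synaptic pathway was described through gene lists, to be read beside the 20.5%, 12% and 6.38% of all genes called on satellite days 2, 4 and 8. The lists were tested neither against all genes nor against the receptor set. In the list of agrin, Lrp4 and MuSK signalling, 15 of 17 genes were tested and none was called on satellite day 4 or day 8 against day 0, with medians of -0.07 and 0.13 beside 0.01 and -0.01 over all genes. At an unadjusted p under 0.05 limma counted 3 of the 15 on day 4 and 2 on day 8. Agrn, which encodes the nerve and muscle signal agrin, differed from day 0 by -0.14, -0.39 and 0.97 on days 2, 4 and 8 (adjusted p = 0.846, 0.583 and 0.142, limma). Lrp4, the agrin receptor, and Dok7, the adaptor that activates MuSK from inside the cell, differed by -0.07 and -0.26 on day 4 and were not called. Lrp4 was above the array median on 2 of 3 satellite arrays on day 0 and Dok7 on 1, and on day 4 each was on 1 of 3. A change in either could go unseen at such levels. On day 2, Abl2, a kinase of the same pathway, was the only gene of the list called (1.23 higher), named after its value was seen.
Among 14 tested genes of the synaptic basal lamina and the dystrophin complex, 5 were lower on satellite day 2, 2 on day 4 and 1 on day 8, and none was higher, where 9.67% of all genes were lower on day 2 and 12% and 6.38% were called in either direction on days 4 and 8. Lamb2, a laminin chain concentrated in the synaptic basal lamina, was lower than on day 0 by 2.71, 2.51 and 1.16 on days 2, 4 and 8. Sntb1, a syntrophin that links dystrophin-type proteins to the membrane, fell by 2.59 and was still lower by 1.54 on day 4. Utrn, the dystrophin relative utrophin of the synapse, was lower by 1.28 on day 2 and not called later. Ache, the esterase that breaks down acetylcholine, differed by -0.80 on day 4 (adjusted p = 0.0292) and Colq, its collagen tail, by -0.47 (adjusted p = 0.157), and neither was called.

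Erbb2, a receptor partner for neuregulin, was lower on all 3 days in satellite cells, by 1.53, 1.06 and 1.19, and was the only gene called on days 4 and 8 among 7 tested of the neuregulin, ErbB and N-box list. Its partner Erbb3 differed by 0.08 on day 4 and 0.09 on day 8. Of 14 neuronal receptor subunits and assembly factors, 6 were tested. Tmem35a, a chaperone of nicotinic receptors, was the only one of them called on day 4, lower by 1.23. In the list of denervation and activity response, 10 genes were tested and 2 were called on day 4, both higher. They were Myog, by 4.29, and Runx1, a transcription factor known to be raised in denervated muscle, by 2.51 (adjusted p = 2.19e-08 and 7.58e-05, limma).
Myog was also the only one of 13 tested E-box factors and inhibitors called on days 4 and 8. Myogenin stood at 5.23 to 5.76 on satellite day 0, 5.02 to 5.27 on day 2, 9.66 to 9.83 on day 4 and 10.3 to 10.5 on day 8. On day 8 it was 0.69 above day 4, which was not called (adjusted p = 0.407, limma). The part of myogenin in the receptor results was not tested. Myod1 differed from day 0 by -0.78, -0.05 and 0.36 and was not called. Of 11 tested markers of newly formed myocytes, the differentiated cells that fuse into fibres, 10 were higher on satellite day 4 and 9 on day 8. The list mean was 5.01 to 5.29 on day 0, 7.66 to 8.27 on day 4 and 7.52 to 8.30 on day 8. This list mean went up on day 4 together with Chrng, Chrnd and Chrna1, and its part in the receptor results was not tested. Markers of mature myofibres were higher for 5 of 16 genes on day 4 and 12 of 16 on day 8, where replicate 1 stood apart at a list mean of 7.12 against 9.19 and 9.40. Without that array the day 8 differences were 2.28 for Chrna1 and 1.22 for Chrng (adjusted p = 0.00262 and 0.0321, limma).
Other lists moved on the same arrays. Leukocyte markers were higher for 12 of 15 genes on day 4 (list mean 6.80 to 7.94) and 6 of 15 on day 8 (5.00 to 6.25), and endothelial markers for 5 and 7 of 14 (6.92 to 7.65 and 6.97 to 8.10, from 6.22 to 6.38 on day 0). Markers of pericytes and smooth muscle, the contractile cells of vessels, were lower for 9 of 11 genes on day 4 and 3 on day 8, with a list mean of 9.51 to 10.3 on day 0, 7.09 to 7.32 on day 4 and 8.58 to 9.32 on day 8. The part of these lists in the receptor results of days 4 and 8 was not tested.
Schwann cell and nerve markers were called higher for none of 6 tested genes on any day in satellite cells and lower for 2 on day 4.

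**Figure D5:**
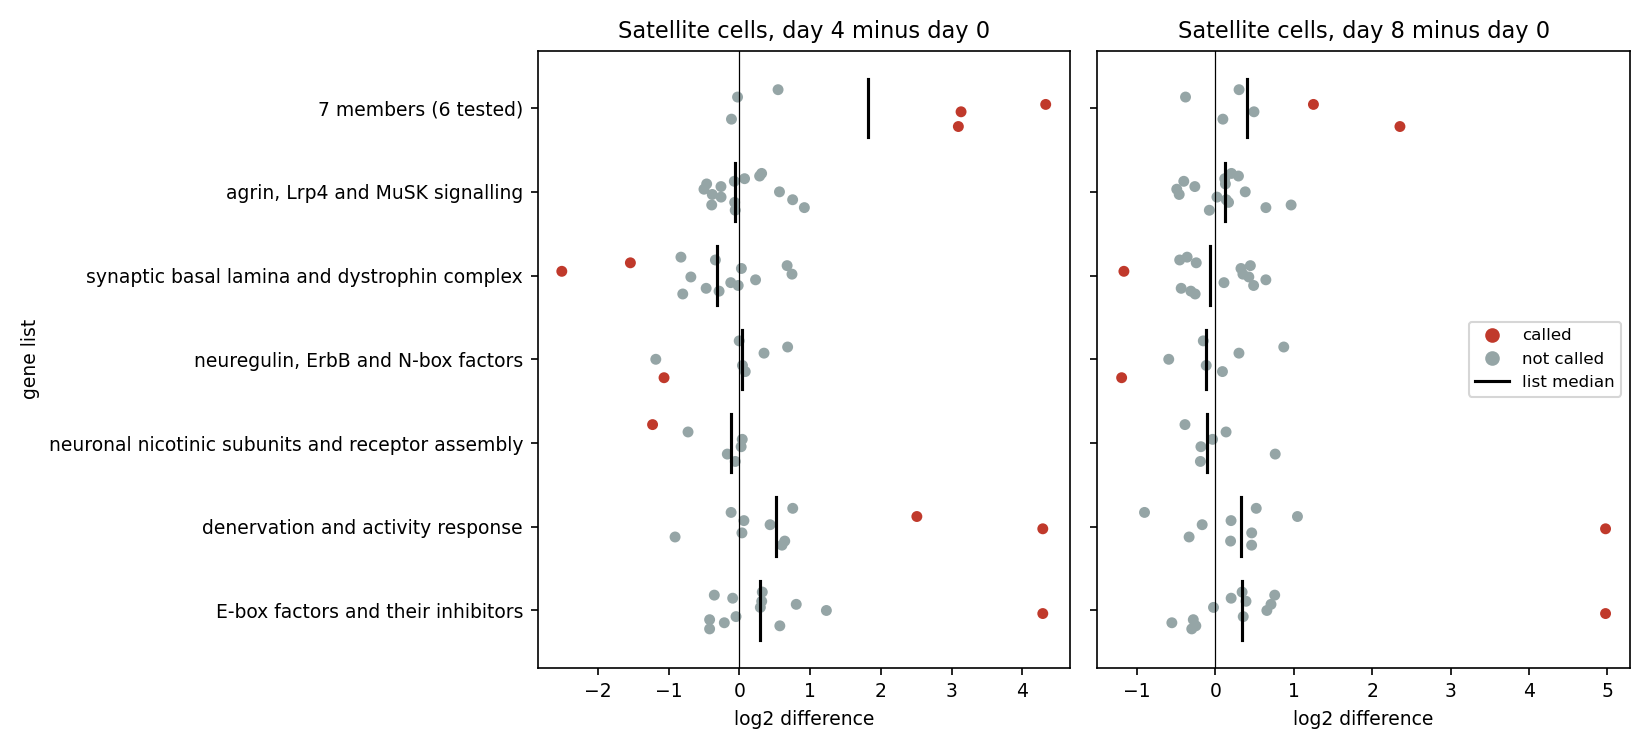
Log2 difference from day 0 in satellite cells (horizontal axis) for each tested gene of the receptor set and of 6 pathway lists (vertical axis), on day 4 (left) and day 8 (right, on its own scale). Red points are called, grey points are not, and black bars are list medians. The receptor set has 3 called genes at 3.10 to 4.33 on day 4, and the agrin, Lrp4 and MuSK list has none on either day, beside 12% and 6.38% of all genes.

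Across the 24 arrays, the genes whose levels went most nearly with each member are given as a description, since the arrays share cell type and day. For Chrng these were Cited1, Dclk1, Ip6k3, Tiam2 and Tnnc1, with Pearson r from 0.948 to 0.903. For Chrnd they were Tiam2, St8sia2, Dclk1, Lgr5 and Baiap2l1, from 0.914 to 0.896, so that Tiam2 and Dclk1 stood in both lists. Musk went with Drp2, Zim1, Fgfr4, Prox1 and Pax7, from 0.975 to 0.970. Rapsn went with Eya4, Ncam1, Cdh15, Zim1 and Asb5, from 0.963 to 0.953, sharing Zim1 with Musk. Chrna1 went with Clcn5, Serinc2, Popdc3, Cdh2 and Met, from 0.954 to 0.940. The nearest gene to Chrnb1, Pja2, reached only 0.839.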

How the data were processed

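RNA of sorted cells was measured on MoGene 2.0 ST arrays, 3 for each of 8 groups. The authors deposited log2 values normalized by RMA, per the submitters' processing notes; RMA subtracts background, forces arrays to 1 distribution and summarises probes, which can compress differences of weak genes. The genome build behind the probe sets is not given in the sources used here. Probe sets were named through the platform annotation: of 24479, 23281 had a symbol. Of their identifiers, 23156 carried the same symbol in RefSeq and 125 were absent. The probe set with the highest mean stood for a symbol with several, which concerned 2 symbols and no member.

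Group means were fitted with limma 3.58.1 in R 4.3.3 (lmFit and eBayes, 16 residual degrees of freedom), two-sided, over 14064 genes above the array median on at least 3 arrays. A call needed an adjusted p under 0.05 and an absolute log2 difference of at least 1, in 15 comparisons. The code was tested on simulated data. Named were the 7 members, the called genes of each pathway list with the largest differences on satellite day 4 or 8 (at most 4), a fixed set of synaptic genes, cell markers and the 5 genes most correlated with each member. Members and lists were chosen with earlier results of these data known. Replicate numbers come from the titles. The limma p-values set a difference against the spread within groups of these samples. That spread was estimated for each gene from all 24 arrays together and moderated over genes. The number of arrays limits the precision. Same-numbered arrays of a day in both cell types shared a sample number in the array name in 11 of 12 pairs. Their deviations correlated above 0.1 in 4 of 12 (median 0.030), against 1 of 24 pairs with another number on the same day (median -0.009). The labels state no pairing, so the main fit used no block, and blocks were run as alternatives. Alternatives were other filters, scalings, priors, array weights, blocks, subsets of groups and leaving out each array.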

Additional observations from a re-analysis of the deposited data

Results flagged for a closer look

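For 6 values the response to injury differed between satellite and endothelial cells by the interaction term of the limma fit. On day 2 the response of Musk was lower in satellite cells by 2.82 (difference -2.82 ± 0.47, SE; adjusted p = 0.000515), that of Chrnb1 by 2.59 (-2.59 ± 0.57, adjusted p = 0.00486) and that of Rapsn by 1.74 (-1.74 ± 0.43, adjusted p = 0.0111). The response of Chrnd on day 2 was higher in satellite cells by 1.11 ± 0.35 (adjusted p = 0.0417). On day 4 the response of Chrnd was higher by 2.92 ± 0.35 (adjusted p = 2.71e-05) and that of Chrng by 3.37 ± 0.42 (adjusted p = 5.25e-05). The loss of satellite cell markers and the gain of leukocyte markers on satellite day 2 move with the first 4 values, and their part was not tested. As Musk and Chrnd entered the tests through satellite arrays alone, their p-values here are not read as support.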

How the results depend on the processing

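The rise of Chrng, Chrnd and Chrna1 on satellite day 4, the fall of Musk, Chrnb1 and Rapsn on day 2 and the fall of Chrng and Chrnd after day 4 kept direction and call under every alternative run. Fitting only the groups compared gave 1 called member in place of 2 on satellite day 8 (Chrng 1.25, adjusted p = 0.0823), and also ended the calls of Chrnd and Chrnb1 between the cell types on days 2 and 4 (adjusted p = 0.0556 and 0.0701) and of the Chrnd response on day 2 (adjusted p = 0.105). Signs near 0 turned for Musk on day 4 (0.00413 with array medians centred, 0.310 with array weights) and Chrnb1 on day 8 (-0.0304 with quantile normalization repeated). The cause was not tested. Leaving out arrays gave 0 to 1 called members on endothelial day 4 and 1 to 2 on satellite day 8. Over the same arrays the satellite differences from day 0 ran from -0.37 to 0.53 for Musk and -0.37 to 0.14 for Chrnb1 on day 4, from -0.00264 to 0.22 for Chrnb1 and -0.0685 to 0.64 for Rapsn on day 8, and from -0.0174 to 0.43 for Chrng on day 2, and day 8 minus day 4 from -0.0443 to 0.46 for Chrnb1.

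The replicate numbers as a block changed no count of called members in 15 comparisons (3, 3 and 2 on satellite days 2, 4 and 8), and with them the test of Chrng minus Chrne over the satellite days gave p = 0.00521 by exact permutation within numbers. With day and number as a random block the consensus correlation was 0.041. Centring arrays on their medians moved the median of all genes between the cell types by -0.162, -0.104 and -0.119 on days 0, 2 and 4 and that of the day 8 response by 0.145. The share of calls that were higher went from 44.6% to 34.3% between the cell types on day 0 and from 63.2% to 75.3% for the day 8 response. Chrne is limited by its signal, which no array showed above its median. Arrays of a day may share processing, which cannot be told apart from the day.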
